A study of Homo sapiens with 2 samples.

Results

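The Krüppel-like factor (KLF) family was followed in the array profiles of transfected C33-A cells, an established human cervical carcinoma line. The 10 members were KLF2, KLF3, KLF4, KLF5, KLF6, KLF7, KLF9, KLF10, KLF11 and KLF13, out of 19775 genes named on the array, and they were taken by symbol: all 32 probe sets that the platform annotation pairs with exactly 1 of these symbols were included. CA9 cells are C33-A cells stably transfected with the full-length human CA9 cDNA in pcDNA3.0, and vector cells are C33-A cells stably transfected with the empty vector. CA9 encodes carbonic anhydrase IX, a carbon dioxide-hydrating enzyme of the cell surface whose gene responds to low oxygen. The labels record culture with 10% serum and RNA taken on day 4 after seeding for both lines, and they do not say whether a line is 1 clone or a pool. There was 1 array per line, so there is no replicate and no test, every difference describes these 2 arrays, and the number of arrays limits the precision. None of the annotated probe sets names CA9, so the labels could not be checked against the transgene, which was not analysed here.

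KLF proteins are transcription factors with zinc fingers at the carboxy terminus that bind GC-rich and CACCC sequences, as do the related SP factors. Their amino-terminal parts differ and fall into groups: KLF3, KLF8 and KLF12 recruit the corepressor CtBP, KLF2, KLF4, KLF5, KLF6 and KLF7 act largely as activators, and KLF9, KLF10, KLF11, KLF13, KLF14 and KLF16 bind the corepressor SIN3A. In epithelia the family is best known for opposed roles of KLF4, which favours differentiation, and KLF5, which favours proliferation.

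Values are intensities on a linear scale, and differences are given as log2 in CA9 cells less log2 in vector cells. Intensities of different probe sets are not comparable as transcript levels, so only the arrays are compared, within a probe set. An intensity of 40.8, the median over the probe sets that are not controls, served as floor, and genes counted as measurable when the brightest probe set, the one with the highest mean log2 intensity over both arrays, exceeded it on at least 1 array. "At least" marks a fold taken against this floor because the dimmer array did not exceed it. The log2 differences of probe sets of the same gene spread with a pooled SD of 0.31 over 6186 genes. This SD is the only measure of disagreement at hand, and it leaves out the spread between cultures and arrays. All probe sets had a median of 41.8 on the CA9 array, against 40.1 on the vector array. The bacterial hybridisation spike-ins had a median difference of 0.41, with 17 of 18 above 0, and the poly-A spike-ins one of -0.17, with 6 of 27 above 0. Of the epithelial markers, KRT8 and KRT18, keratins of simple epithelia, had intensities of 101 and 80.2 in CA9 cells, against 68.3 and 56.1 in vector cells, whereas EPCAM and CDH1 lay below the floor on both arrays. Among blood markers, PTPRC, the leukocyte antigen CD45, had 30.1 in CA9 cells and 58.1 in vector cells, at least 1.42-fold lower, and CD14 had 57.1 and 36.9, at least 1.40-fold higher. The other PTPRC probe sets and CD3E did not exceed the floor on either array. HBB, the only blood marker with both arrays above the floor, had 71.3 in CA9 cells and 78.9 in vector cells. None of the measurable epithelial, blood, stromal or vessel markers differed 2-fold, and the part of these shifts in the KLF values was not tested. RNA came from whole dishes, so fewer cells with a transcript and less of it per cell cannot be told apart.

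No KLF gene differed 2-fold between the lines. The brightest probe sets of all 10 members were measurable, and 0 of them passed 2-fold upwards and 0 downwards. Of the 13823 measurable genes 0.651% were higher by that much and 0.694% lower, 1.35% in all. At that share 10 genes would seldom include a call, so the count of 0 does not set the family apart. The members ran from -0.81 for KLF11 to 0.86 for KLF4, both measured against a value below the floor, with a median of -0.11, beside a median of -0.03 for all measurable genes. Of the 10 members, 3 lay above 0 and 7 below it, beside 45.9% and 53.0% of measurable genes. That split was 5 and 5 after quantile normalization, removal of a loess trend or averaging of probe sets, and 2 and 8 once both arrays had been given equal medians. KLF4 was measurable only through the CA9 array and KLF11 only through the vector array, so the floor fixed their signs. The 8 members with both arrays above the floor split 2 above and 6 below 0, beside 44.2% of such genes above 0. Without probe sets named _x_at or _s_at, 5 members remained (KLF3, KLF5, KLF6, KLF7 and KLF11), all below 0 and with a median of -0.75, where the median of all genes was -0.04. That median is the value of KLF3, the floor fixed the sign of KLF11, and KLF7 lay at -0.01. The differences of 4 members exceeded the SD between probe sets of a gene, and 35.4% of all measurable genes did so.

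**Figure D1:**
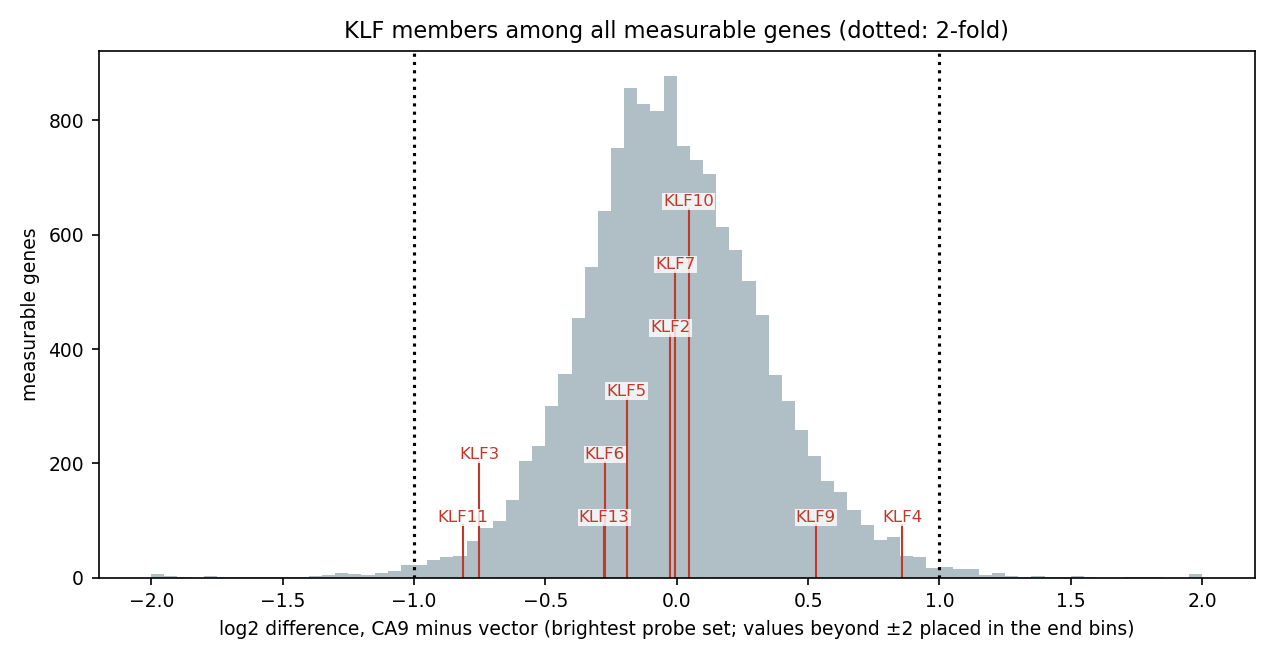
Histogram of the log2 difference, CA9 minus vector, of 13823 measurable genes (horizontal axis; number of genes on the vertical axis), with each KLF member marked in red at the value of its brightest probe set; the height of a mark has no meaning. All 10 marks lie between the dotted 2-fold lines, KLF11 and KLF3 at the lower end and KLF9 and KLF4 at the upper.

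The same held for single probe sets. Of the 32 probe sets, 24 had at least 1 array above the floor and 19 had both. None of the 24 reached 2-fold, a size reached by 1.53% of the 24174 single-gene probe sets with an array above the floor (0.749% higher and 0.782% lower). At 1.5-fold, a size chosen after the values were seen, 2 probe sets were higher and 4 lower, against 5.81% and 5.69% of all such probe sets. These 6 probe sets belong to KLF3, KLF4, KLF5, KLF11 and KLF13, and those of KLF4 and KLF11 pass only by their measured values, since against the floor they fall short of 1.5-fold. The 8 probe sets below the floor on both arrays had differences from -0.52 to 0.48. These are not read singly, but they enter the averages over all probe sets of a gene. By brightest probe set, 3 of the 10 members passed 1.5-fold, 1 higher and 2 lower, where 5.29% and 4.74% of measurable genes did.

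Windows before the listed starts of KLF4, KLF5, KLF11 and KLF13 are shown. These genes held probe sets past 1.5-fold and have an entry in the RefSeq-derived table used (assembly GRCh38.p14), which holds 8 of the 10 members. Whether a window acts as a promoter, or overlaps exons of another transcript of its gene, was not checked. Each run is the 250 bases before the gene's start in that table, 5′ to 3′ on the strand of the gene, with capitals marking CACCC (or GGGTG) and GGGCGG (or CCGCCC), the GC box; the 2 motifs can overlap.
KLF4, chr9:107489770-107490019, minus strand: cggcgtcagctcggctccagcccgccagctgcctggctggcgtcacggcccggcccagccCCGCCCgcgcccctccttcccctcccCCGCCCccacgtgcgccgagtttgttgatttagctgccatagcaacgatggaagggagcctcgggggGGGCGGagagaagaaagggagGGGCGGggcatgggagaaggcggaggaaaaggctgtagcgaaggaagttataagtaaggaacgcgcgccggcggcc
KLF5, chr13:73054726-73054975, plus strand: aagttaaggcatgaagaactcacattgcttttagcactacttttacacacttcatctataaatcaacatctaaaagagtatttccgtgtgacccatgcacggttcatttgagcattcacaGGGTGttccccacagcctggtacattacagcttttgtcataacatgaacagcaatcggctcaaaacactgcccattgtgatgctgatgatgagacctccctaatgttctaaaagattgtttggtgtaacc
KLF11, chr2:10043579-10043828, plus strand: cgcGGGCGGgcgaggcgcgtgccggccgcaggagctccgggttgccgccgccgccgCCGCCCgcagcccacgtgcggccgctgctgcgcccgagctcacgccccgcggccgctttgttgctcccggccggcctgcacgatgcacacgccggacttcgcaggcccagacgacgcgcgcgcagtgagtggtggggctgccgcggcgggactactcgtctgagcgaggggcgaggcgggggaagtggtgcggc
KLF13, chr15:31326585-31326834, plus strand: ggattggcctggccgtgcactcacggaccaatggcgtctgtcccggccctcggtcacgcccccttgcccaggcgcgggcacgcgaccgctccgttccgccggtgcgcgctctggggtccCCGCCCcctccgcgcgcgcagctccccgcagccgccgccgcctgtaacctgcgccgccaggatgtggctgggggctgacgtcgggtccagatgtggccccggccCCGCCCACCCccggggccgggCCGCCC
The KLF4 window held 4 GC boxes and no CACCC, that of KLF11 held 2 GC boxes and no CACCC, that of KLF13 held 3 GC boxes and 1 CACCC that overlaps a GC box, and that of KLF5 held 1 CACCC and no GC box. Over 35116 windows of the same length before listed starts, 54.7% held a CACCC and 42.6% a GC box. Among the 8 members with an entry, 3 held a CACCC and 5 a GC box. These matches are letters in a window, and the start in the table need not be the start used in C33-A.

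KLF3, the repressor that works through CtBP, had a pair of probe sets with nearly equal negative differences. Its brightest probe set, 225133_at, had an intensity of 172 in CA9 cells and 290.0 in vector cells, 1.68-fold lower, and 225140_at had 51.4 in CA9 cells and 85.8 in vector cells, 1.67-fold lower. The log2 differences of these probe sets, -0.75 and -0.74, lay close together and beyond the SD between probe sets. The remaining probe sets of KLF3 did not share them: 219657_s_at had 108 in CA9 cells and 122 in vector cells, a difference of -0.18, and 222913_at had 49.1 and 48.0, a difference of 0.03. All 4 probe sets were above the floor on both arrays, and their average was -0.41. A difference as far from 0 as that of the brightest probe set was seen in 4.43% of measurable genes. Of 641 genes with 4 probe sets above the floor, 29.2% had differences spread as widely as those of KLF3.

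Among the activators, KLF4 lay above 0 and KLF5 below it, but the floor left KLF4 no other side. KLF4, a factor of epithelial differentiation and of reprogramming to pluripotency, had an intensity of 58.1 in CA9 cells and 32.0 in vector cells in 220266_s_at. The vector value is below the floor, so KLF4 was at least 1.42-fold higher, and it was measurable only through the CA9 array. Its second probe set, 221841_s_at, was below the floor on both arrays, at 12.7 in CA9 cells and 13.3 in vector cells. The measured log2 difference of 0.86 rests on that value below the floor, so no rank among genes is given for it.

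KLF5, which drives proliferation of basal and crypt epithelium, was lower in CA9 cells in both of its probe sets by unequal amounts. In 209212_s_at, the brighter, it had an intensity of 181 in CA9 cells and 206 in vector cells, a difference of -0.19, within the SD between probe sets. In 209211_at it had 96.4 in CA9 cells and 162 in vector cells, a difference of -0.75, or 1.68-fold lower. Both were above the floor on both arrays. The value for KLF5 therefore ran from -0.19 to -0.75 with the choice of probe set, and the average was -0.47.

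KLF6, an early gene of tissue injury that is often reduced in carcinomas, had 5 probe sets with an array above the floor, and they did not point one way. The brightest, 1555832_s_at, had 160 in CA9 cells and 193 in vector cells, a difference of -0.27, and 224606_at had 142 in CA9 cells and 188 in vector cells, a difference of -0.40. By contrast, 208961_s_at had 123 in CA9 cells and 109 in vector cells, and 208960_s_at had 65.2 and 57.7, with differences of 0.17 and 0.18. In 211610_at it had 36.7 in CA9 cells, below the floor, and 42.4 in vector cells. Of 231 genes with 5 such probe sets, 75.3% had differences of both signs and 62.8% had a spread at least as wide as the 0.58 of KLF6.

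KLF7 and KLF2 were nearly equal between the lines in their brightest probe sets. KLF7, which supports axon growth in neurons, had 108 in both lines in 204334_at, a difference of -0.01. Its dimmer probe sets scattered from -0.43 to 0.25 among those with an array above the floor: 238482_at had 60.4 in CA9 cells and 50.7 in vector cells, 238517_at had 46.1 and 57.1, and 240432_x_at had 32.9 and 44.3. The -0.43 belongs to 240432_x_at, whose CA9 value was below the floor, so it was at least 1.08-fold lower. The lowest difference with both arrays above the floor was -0.31, in 238517_at. KLF2, a factor of quiescent endothelium and T cells, had 121 in CA9 cells and 123 in vector cells in 219371_s_at, a difference of -0.02. Its other probe set, 226646_at, lay below the floor at 27.5 and 25.5.

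**Figure D2:**
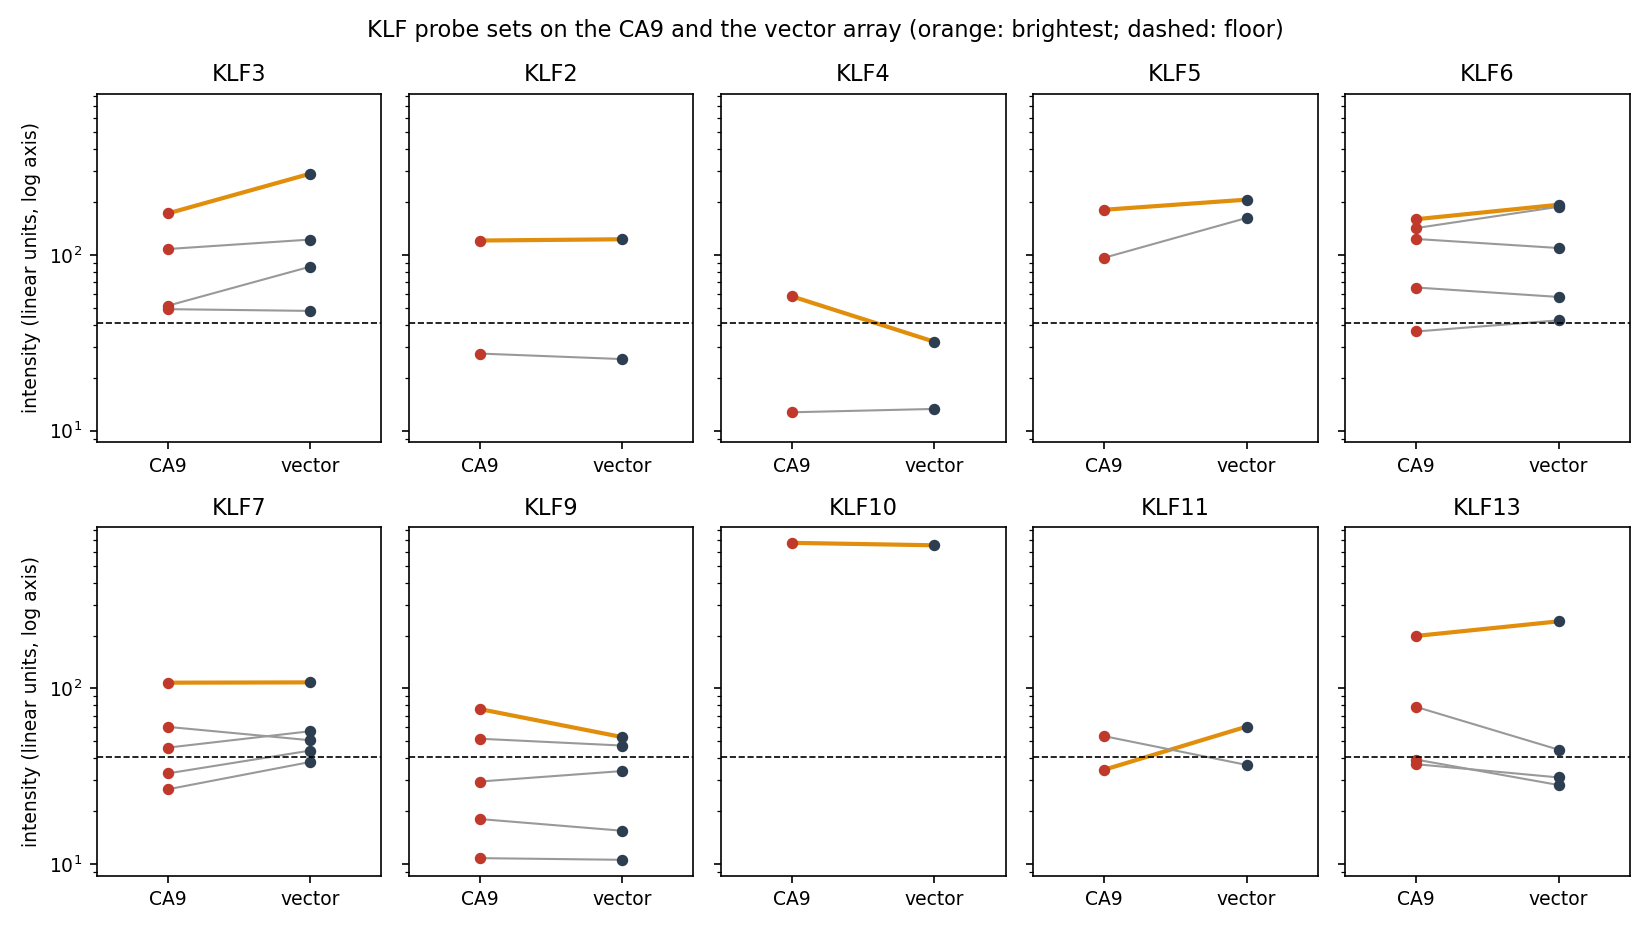
Intensity of each KLF probe set (vertical log axis, linear intensity units) on the CA9 array (red, left) and the vector array (dark, right), 1 point per probe set and array, joined by a line that is orange for the brightest probe set; the dashed line is the floor of 40.8. The orange lines of KLF3 and KLF5 rise towards the vector array, those of KLF4 and KLF9 descend, and the lines of KLF11 cross.

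In the SIN3A-binding group, KLF10 was almost equal on both arrays. KLF10, an early gene of TGF-beta signalling, had an intensity of 674 in CA9 cells and 653 in vector cells in its only probe set, 202393_s_at, a difference of 0.05. A difference as far from 0 was seen in 89.1% of measurable genes. KLF9, which is induced by glucocorticoid and thyroid hormone, had 76.3 in CA9 cells and 52.8 in vector cells in 203541_s_at, 1.44-fold higher, a difference of 0.53. Its second probe set above the floor, 228474_s_at, had 51.7 and 47.3, a difference of 0.13, and the other 3 were below the floor on both arrays. All 5 KLF9 probe sets are named _s_at, a kind that can also detect related transcripts. Their average, which includes those below the floor, was 0.14.

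KLF11 and KLF13 had probe sets with differences of opposite sign. KLF11, a relative of KLF10 in the TGF-beta response, had 34.5 in CA9 cells and 60.6 in vector cells in 218486_at, at least 1.48-fold lower against the floor. In 1553137_s_at it had 53.5 in CA9 cells and 36.7 in vector cells, at least 1.31-fold higher. Neither probe set was above the floor on both arrays, and the log2 differences, -0.81 and 0.54, each rest on a value below the floor. No direction is given for KLF11, which enters the counts of members below 0 by its brightest probe set.

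KLF13, an activator of the chemokine gene CCL5 in T cells, had 199 in CA9 cells and 241 in vector cells in its brightest probe set, 225390_s_at, a difference of -0.28. In 219878_s_at it had 78.4 in CA9 cells and 44.8 in vector cells, 1.75-fold higher, a difference of 0.81 with both arrays above the floor. The 2 probe sets were 1.08 apart, a distance reached by 1.96% of the 3580 genes with 2 probe sets above the floor on an array, whose median was 0.27. Both remaining probe sets lay below the floor, with intensities of 39.3 and 37.0 in CA9 cells and 28.2 and 31.1 in vector cells. The average over all 4, which includes those below the floor, was 0.32, of opposite sign to the brightest probe set. The direction of KLF13 thus also depends on the probe set.

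**Figure D3:**
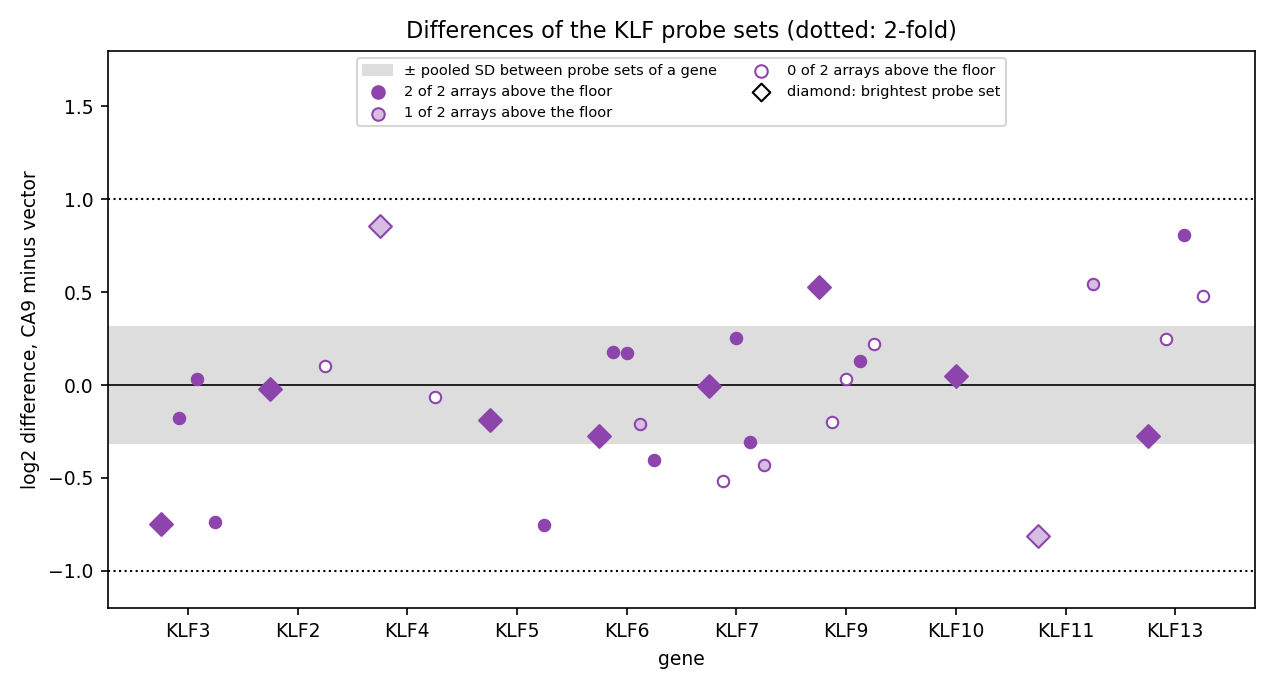
Log2 difference, CA9 minus vector, of every KLF probe set (vertical axis) by gene (horizontal axis); diamonds are the brightest probe set of a gene, fill shows how many of the 2 arrays lie above the floor, the grey band is the pooled SD of 0.31 between probe sets of a gene, and dotted lines mark 2-fold. No point reaches 2-fold, KLF3 has a close pair near -0.75, KLF11 has points on both sides of the band, and KLF13 has its brightest probe set below 0 within the band and a point at 0.81.

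Of the 7 members with more than 1 probe set above the floor, 5 had probe sets on both sides of 0, namely KLF3, KLF6, KLF7, KLF11 and KLF13, and 2, KLF5 and KLF9, had all on the same side. Among all 6186 genes with more than 1 such probe set, 46.6% had both signs, and that share was 34.9% with 2 probe sets and 67.4% with 4.

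**Figure D4:**
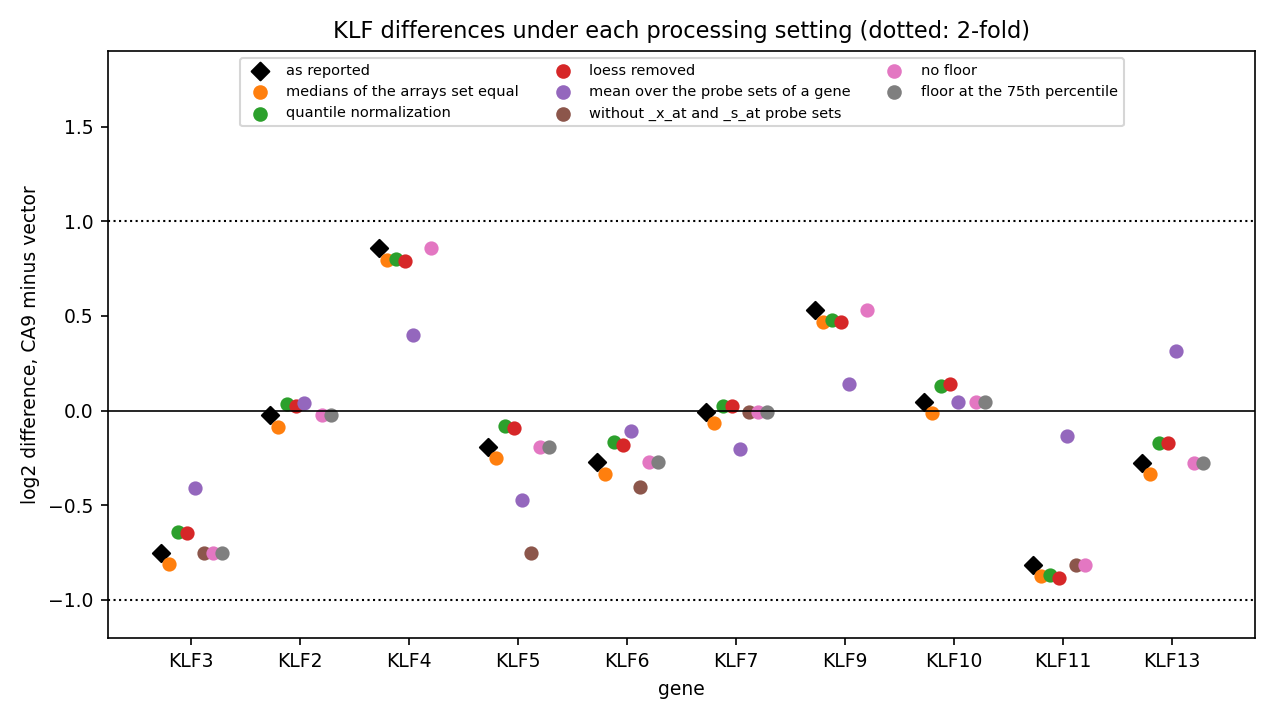
Log2 difference, CA9 minus vector, of each KLF member (vertical axis) by gene (horizontal axis) as reported (black diamonds) and under 7 other processing settings (coloured points); a setting that leaves a gene without a usable probe set has no point, and dotted lines mark 2-fold. No setting brings a member to 2-fold, KLF13 moves to 0.32 with averaged probe sets, and KLF5 moves to -0.75 without _x_at and _s_at probe sets.

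The brightest probe sets of the remaining KLF genes and the SP factors gave no 2-fold difference either. Only 1.35% of measurable genes differed that much, so lists this short would seldom hold such a gene. Of 7 other KLF genes, 4 were measurable. KLF15, a factor of glucose and amino acid metabolism, had 100.4 in CA9 cells and 62.0 in vector cells, 1.62-fold higher, while its second probe set had 69.4 and 65.9, a difference of 0.08. KLF16 had 182 in CA9 cells and 134 in vector cells, a difference of 0.44, and its second probe set had a difference of 0.21. KLF12 had 72.0 in CA9 cells and 76.9 in vector cells, a difference of -0.09, but in 206966_s_at it had 84.8 and 62.2, a difference of 0.45. KLF14 had a difference of -0.20 and a second probe set at -0.16, whose CA9 value was below the floor, and KLF1, KLF8 and KLF17 were below the floor on both arrays.

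Of the SP genes, 7 of 8 on the array were measurable, with a median of -0.08. SP3, a broadly expressed GC box factor, had 730.1 in CA9 cells and 899 in vector cells, a difference of -0.30, and 238035_at of the same gene had 128 and 176, a difference of -0.47. In contrast, 229217_at had 124 in CA9 cells and 66.5 in vector cells, a difference of 0.90, and 227537_s_at had a difference of 0.09. SP8 had the highest value, 0.33, at 59.6 in CA9 cells and 47.6 in vector cells. SP1, the founding member of the SP group, had 329 and 347, a difference of -0.08.

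Genes that work with the KLF proteins were also short of 2-fold in their brightest probe sets, a size reached by 1.35% of measurable genes. All 12 cofactors were measurable, 6 above and 6 below 0, with a median of -0.10, which was 0.03 over the 11 with both arrays above the floor. SIN3A, the corepressor scaffold bound by KLF9, KLF10, KLF11 and KLF13, had 83.1 in CA9 cells and 132 in vector cells, 1.59-fold lower. A second probe set of SIN3A had a difference of -0.52, and 238006_at was equal on both arrays. KAT2B, an acetyltransferase, had 28.9 in CA9 cells, below the floor, and 45.0 in vector cells, at least 1.10-fold lower. CTBP2, the partner of KLF3, had a difference of 0.40 in its brightest probe set and of -0.53 in 201218_at, so it has no settled direction. SIN3B had a difference of -0.36, with a second probe set equal on both arrays.

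Of 8 measurable genes that control KLF protein stability, 3 lay above and 5 below 0, with a median of -0.18. SIAH1, a ubiquitin ligase, had 388 in CA9 cells and 519 in vector cells, a difference of -0.42, and a second probe set at 0.02. ITCH, another ligase, had a difference of -0.35, with 3 further probe sets below 0 and 1 above it among those with an array over the floor. WWP1, a ligase of KLF2 and KLF5, had 217 in CA9 cells and 173 in vector cells, a difference of 0.32. BTRC, a ubiquitin ligase subunit, had a difference of -0.31 and further probe sets above the floor at -0.18 and 0.30.

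Signalling genes upstream of KLF expression had 12 measurable members, 3 above and 9 below 0, with a median of -0.12. TGFBR2 was measurable only through the CA9 array and could only lie above 0. With both arrays above the floor, 2 were above and 9 below 0, with a median of -0.16, beside 44.2% of genes above 0 and a median of -0.04. TGFBR1, the type I TGF-beta receptor, had 233 in CA9 cells and 358 in vector cells, 1.54-fold lower. TGFBR2, the type II receptor, was near the floor, at 42.3 in CA9 cells and 24.0 in vector cells, at least 1.04-fold higher. SMAD4, the shared SMAD, had a difference of -0.39 and a second probe set at -0.19, and MEF2D, a MEF2 factor of the pathway that induces KLF2 and KLF4, had -0.37 with further probe sets at 0.03 and 0.12.

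No gene of the KLF target list reached 2-fold in its brightest probe set, as 1.35% of measurable genes did. Of 16 measurable targets 12 were above and 4 below 0, with a median of 0.13, while 45.9% of all measurable genes were above 0, with a median of -0.03. PLAU and THBD were measurable only through the CA9 array and could only lie above 0. With both arrays above the floor, 10 targets were above and 4 below 0, with a median of 0.12, beside 44.2% of genes above 0 and a median of -0.04. GAP43, a protein of growing axons, had 88.3 in CA9 cells and 45.3 in vector cells, 1.95-fold higher. A second GAP43 probe set, 204471_at, had 163 in CA9 cells and 21.4 in vector cells, at least 3.99-fold higher, so whether GAP43 passes 2-fold depends on the probe set chosen. EGFR, another listed target, had a difference of 0.27 in its brightest probe set. In 1565483_at EGFR had 39.4 in CA9 cells, below the floor, and 80.5 in vector cells, a measured difference of -1.03 but at least 1.97-fold lower against the floor. TGFB1, a target of KLF6, had 499 in CA9 cells and 307 in vector cells, 1.62-fold higher, and 0.16 in the other probe set. CCL5, the target of KLF13, had 115 in CA9 cells and 86.3 in vector cells, a difference of 0.41. PLAU, the urokinase gene and a KLF6 target, had 51.6 in CA9 cells and 39.2 in vector cells, at least 1.26-fold higher. The targets were chosen from textbook knowledge of several tissues, and their list's median is a description.

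**Figure D5:**
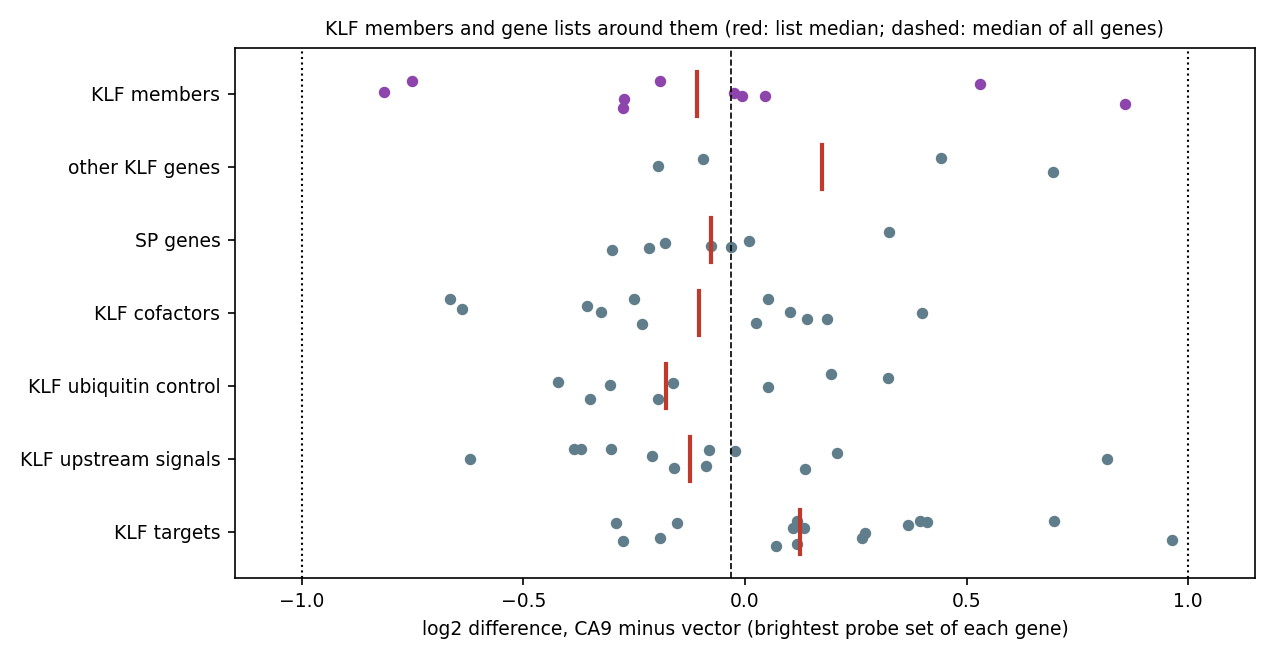
Log2 difference, CA9 minus vector, of the brightest probe set of each measurable gene (horizontal axis) in the KLF members (purple) and 6 related gene lists (grey-blue), 1 point per gene with random vertical offset; red bars are list medians, the dashed line is the median of all measurable genes at -0.03 and dotted lines mark 2-fold. The list medians lie between -0.18 and 0.17, and no point passes 2-fold.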

How the data were processed

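RNA of 2 stable C33-A lines, 1 array each, was profiled on Affymetrix arrays from 5 µg of total RNA, per the labels' protocols. The authors deposited 1 intensity per probe set and array, for which the submitters' processing notes name RMA; its version and background setting are not given in the sources used here. The deposited intensities are linear, judging by their range, although log2 is the usual output of RMA. Log2 was taken with no pseudocount. Of 54675 probe sets, 41091 have 1 gene symbol, and 1425 had equal values on both arrays.

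Symbols were updated by Entrez ID through RefSeq (41037 probe sets matched). Each gene was represented by its brightest probe set, and calls were made at 2-fold. The alternatives were other scalings, averaged probe sets, no _x_at or _s_at probe sets and other floors. With 1 array per line, no test was run. The members and lists were chosen with earlier results of these data known. All member probe sets are named; other KLF and SP genes could be named, and of each list of related genes the 4 farthest from 0 are. EGR1, EGFR, THBD, the marker genes and single probe sets named beyond that were chosen after their values were seen. Python 3.11.15, numpy 2.4.6, pandas 2.3.3, statsmodels 0.14.6 and matplotlib 3.10.9 were used.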

Additional observations from a re-analysis of the deposited data

How the results depend on the processing

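Under each of 7 alternatives 0 KLF members passed 2-fold upwards and 0 downwards, and 0 probe sets reached 2-fold under the 6 that treat them singly. With no floor, 0 of the 32 probe sets reached 2-fold as deposited. Averaging, dropping probe sets or changing the floor therefore could not give a call, and only the other scalings could. At 1.5-fold, added after the data were seen, the counts were 1 member higher, 2 lower and 6 probe sets apart. The median of the members, -0.11, was -0.75 without _x_at and _s_at probe sets, where 5 members remained, all below 0, and it ran from -0.19 to -0.03 under the others. The -0.75 is the value of KLF3, and the sign of KLF11 was fixed by the floor. Of 62 single-gene values under the alternatives, 56 moved by less than the SD between probe sets of a gene. The 6 others were KLF3, KLF4, KLF9, KLF11 and KLF13 with averaged probe sets, and KLF5 without _x_at and _s_at probe sets. The averages of KLF4, KLF9 and KLF13 include probe sets below the floor on both arrays. Among the 56, the 10 values with no floor and the 7 with the higher floor could not move, because a floor only drops genes. Nor could KLF10 with averaging, as it has 1 probe set. KLF3, KLF7 and KLF11 kept their brightest probe set without _x_at and _s_at probe sets, so they could not move either. KLF2, KLF7, KLF10 and KLF13 changed sign under 3, 2, 1 and 1 alternatives. Setting medians equal changed the calls over all genes to 69 higher and 123 lower, in place of 90 and 96, and averaging gave 45 and 48. A floor at the 75th percentile left 7 members. No paired analysis was possible because there is 1 array per line. The signal over background limits KLF4 and KLF11, which were above the floor on 1 array in each probe set that reached it.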

Other observations

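Transcripts named after KLF genes were read as a further description. KLF3-AS1, annotated beside KLF3, had 32.0 and 15.1 in CA9 cells, against 35.9 and 17.0 in vector cells, in its 2 probe sets. KLF9-DT, annotated beside KLF9, had 26.9 in CA9 cells and 25.7 in vector cells. All 3 probe sets lay below the floor on both arrays, so no difference is given for them.

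EGR1, an early response factor that binds GC-rich sequences, was singled out after its values were seen because its probe sets disagreed. The brightest had 3991 in CA9 cells and 4219.7 in vector cells, a difference of -0.08. The others, 201694_s_at and 201693_s_at, had 1703 and 407 in CA9 cells, against 1089 and 286 in vector cells, with differences of 0.64 and 0.51.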
